A study of Mus musculus with 6 samples.

Results

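The genes examined here are 36 genes of DNA replication and the cell cycle, chosen by name from the 54532 genes of the deposited table. Messenger RNA was sequenced from whole livers of untreated mice. The 3 control livers came from mice with floxed Notch1 alleles (Notch1fl/fl), and the 3 knockout livers from mice labelled hepatocyte Notch1 KO, in which the deletion is aimed at hepatocytes and not at the other cells of the liver. The series was made to ask what hepatocyte Notch1 does in thrombopoietin production. The sources used here do not give the Cre line, sex, age, time of collection or any pooling of animals. All 36 genes were found. Levels are FPKM, fragment counts divided by gene length and by a library factor, given as mean ± SD over n = 3 livers per group. Differences are log2 fold changes on log2(FPKM + 1), which understates the change of genes at low levels, so the ratio of mean FPKM stands beside them. In whole tissue, fewer cells of a type and less RNA per cell cannot be told apart.

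A dividing cell passes through phases that use different genes. In G1, D and E cyclins activate cyclin-dependent kinases, which phosphorylate the retinoblastoma protein Rb1 and free E2F factors to switch on replication genes. The MCM helicase is loaded on origins during licensing, nucleotides and DNA are made in S phase, and cyclin B with Cdk1 drives mitosis. Most hepatocytes of an adult liver rest outside the cycle and re-enter it after tissue loss, and many are polyploid.

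The libraries held 15612924 to 17511961 reads in genes, knockout 2 being the deepest. Notch1 measured 0.618, 0.965 and 0.854 FPKM in controls 1 to 3 and 0.301, 0.540 and 0.292 in knockouts 1 to 3, with each knockout below each control (0.812 ± 0.177 and 0.377 ± 0.141, limma adjusted p = 0.257). Summed levels of 10 hepatocyte markers were 49223 to 57212 FPKM in controls and 35605 to 46594 in knockouts. Across the transcriptome, 3 of 12022 genes tested passed (limma adjusted p under 0.05, 0.025%), 0.00832% higher and 0.0166% lower in the knockouts.

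None of the cell cycle genes passed. Of the 36, 31 averaged 0.5 FPKM or more and were tested, and 0 passed the limma threshold of 0.05 over all genes. At an unadjusted p under 0.05, 3 were higher (Ccnd2, Mcm2 and Mcm5) and 0 lower, where 6.83% of all genes tested were higher at that level and 7.06% lower (13.9% in either direction). With the replicate number as a block, 4 were higher (E2f1, Mcm5, Mcm6 and Rrm1) and 0 lower, where 7.94% of all genes tested were higher and 8.18% lower (16.1% in either direction), and again 0 passed after adjustment, as for all genes (0.0%). By limma voom on reads recovered from the FPKM, 0 passed (0.133% of all genes did) and 4 of the 31 had an unadjusted p under 0.05, where 14.5% of all genes did. The direction of the means was less even: 25 of the 31 had higher means in the knockouts, against 48.6% of all genes tested. Their median log2 fold change was 0.14, beside -0.0081 over all genes tested. Scaling by total reads in place of the authors' factors moved the median of all genes up by 0.11, so these differences are read relative to that median.

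**Figure D1:**
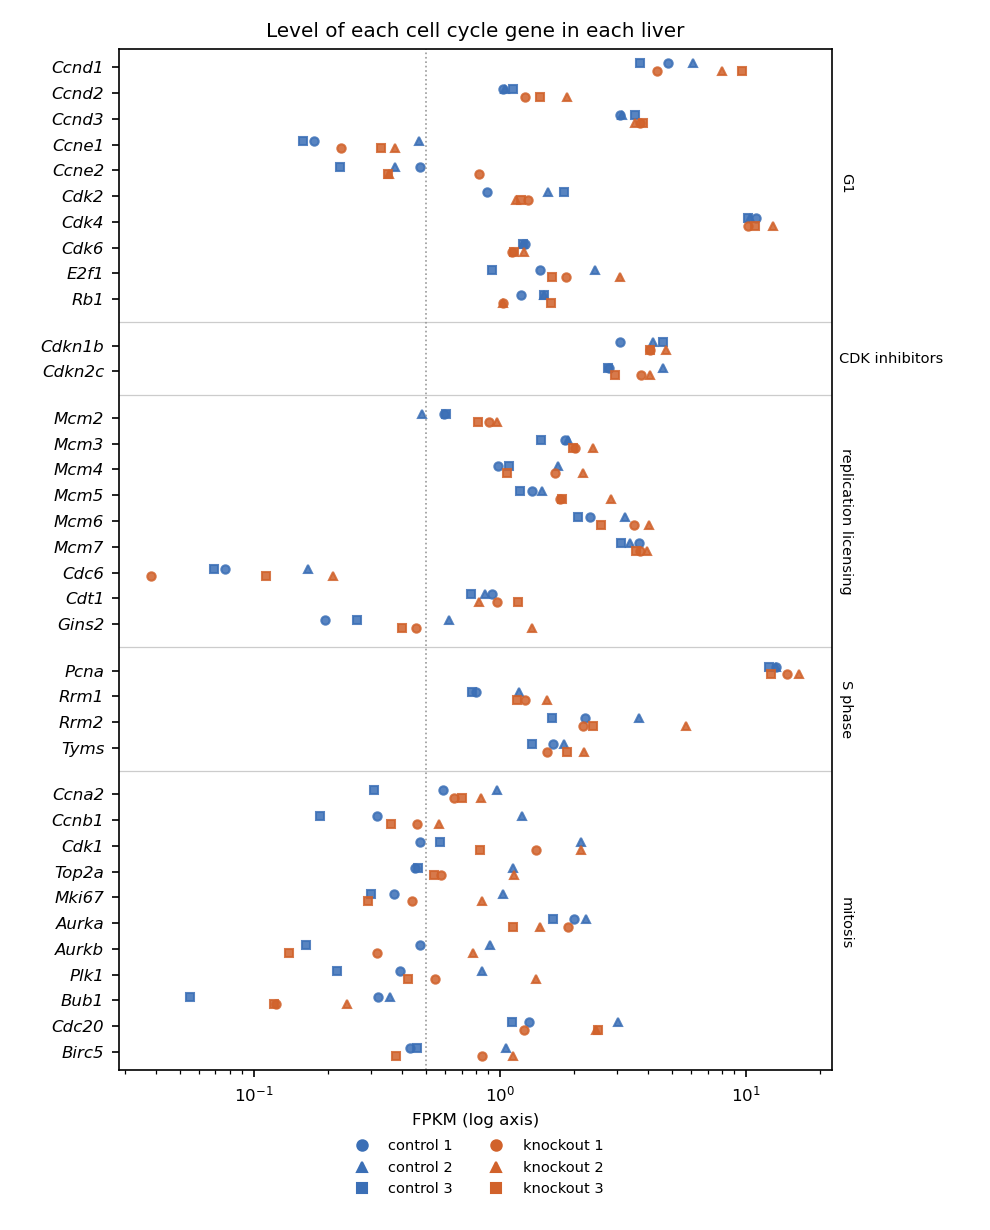
FPKM of each of the 36 genes in each liver, on a log axis, grouped by phase. Blue marks are the 3 controls and orange marks the 3 knockouts, with the shape giving the library number, and the dotted line is the 0.5 FPKM filter on the mean. Pcna and Cdk4 are the highest, Cdc6 is the lowest, and in 9 of the 11 mitotic genes the triangles of control 2 and knockout 2 are the highest of their groups.

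The levels ranged over the phases. Pcna, the sliding clamp of DNA polymerases, had the highest level per length of the 36 genes (13.0 ± 0.526 FPKM in controls), followed by Cdk4 (10.6 ± 0.369). Cdc6, which loads the helicase, had the lowest (0.104 ± 0.0546, from 3 to 22 reads per liver). The 5 genes below the filter, Ccne1, Ccne2, Cdc6, Aurkb and Bub1, rested on 3 to 46 reads per liver. Because most mitotic genes had under 1 FPKM, their values carry more counting error than those of Pcna or Cdk4.

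Among the G1 genes, the 3 D cyclins had higher means in the knockouts, and of the kinases they activate Cdk4 had a higher and Cdk6 a lower mean. Ccnd2, a D cyclin (ENSMUSG00000000184, chromosome 6, 127125162 to 127152193, GRCm38), measured 1.03, 1.05 and 1.14 FPKM in controls 1 to 3 and 1.27, 1.88 and 1.46 in knockouts 1 to 3. Every knockout lay above every control, with means of 1.07 ± 0.0565 and 1.54 ± 0.312, a ratio of 1.43. Its log2 fold change was 0.28 (SE 0.11, 95% interval 0.013 to 0.56, unadjusted p = 0.0424, limma adjusted p = 0.341, ranging from 0.236 to 0.685 under other settings).

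Ccnd1, the D cyclin that marks entry of hepatocytes into the cycle, measured 4.85, 6.13 and 3.72 FPKM among controls and 4.37, 8.02 and 9.66 among knockouts. Knockouts 2 and 3 were above all controls, while knockout 1 lay among them, so the groups overlapped. The means were 4.90 ± 1.20 and 7.35 ± 2.71 (log2 fold change 0.46 with a 95% interval from -0.18 to 1.11, and limma adjusted p = 0.497). Ccnd3, another D cyclin, measured 3.27 ± 0.259 against 3.69 ± 0.140 FPKM, with overlapping values.

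For the kinases the differences were within the spread between livers. Cdk4 measured 10.6 ± 0.369 FPKM in controls and 11.4 ± 1.42 in knockouts (log2 fold change 0.09, 95% interval -0.16 to 0.34). Cdk6, its close relative, measured 1.25 ± 0.0138 against 1.18 ± 0.0725 (-0.05, 95% interval -0.26 to 0.16), and Cdk2, the partner of cyclins E and A, 1.42 ± 0.481 against 1.23 ± 0.0654. Rb1, the brake on E2F factors, measured 1.41 ± 0.170 against 1.23 ± 0.340. Cdk2, Cdk6 and Rb1 were the G1 genes with lower means, although Cdk6 became 0.030 with scaling by total reads and Cdk2 0.019 with 1 liver left out. The E cyclins, which carry cells into S phase, were below the filter: Ccne1 measured 0.268 ± 0.175 against 0.310 ± 0.0762 and Ccne2 0.359 ± 0.127 against 0.510 ± 0.271.

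E2f1, an activator of replication genes, followed the library number. It measured 1.46, 2.43 and 0.935 FPKM in controls 1 to 3 and 1.87, 3.08 and 1.63 in knockouts 1 to 3. Library 2 was the highest in each group, and each knockout was above the control of the same number. The log2 fold change was 0.30 (SE 0.25, limma adjusted p = 0.630). With the replicate number as a block, its SE was 0.10 and its adjusted p 0.250.

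For the CDK inhibitors, too, the groups overlapped. Cdkn1b, which encodes p27 and restrains cyclin E with Cdk2, measured 3.09, 4.20 and 4.60 FPKM among controls and 4.08, 4.76 and 4.10 among knockouts. The groups overlapped, with a log2 fold change of 0.11 (95% interval from -0.21 to 0.43, and limma adjusted p = 0.781). Cdkn2c, which encodes p18 and binds Cdk4 and Cdk6, measured 3.39 ± 1.07 against 3.59 ± 0.582.

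The means of the licensing genes all pointed one way. All 9 genes had higher means in the knockouts, and the median log2 fold change of the 8 tested was 0.25. None of those 8 changed sign under the alternatives. Mcm2, Cdt1 and Gins2 fell below the filter at 1 FPKM and were not fitted there. Gins2 passed the main filter only through the knockouts (0.361 FPKM in controls, 0.736 in knockouts). Its place among the 8 therefore favoured a higher mean and is not separate support for that direction. In 3 of the 8 tested (Mcm2, Mcm3 and Mcm5) every knockout lay above every control, and 0 lay below, where 9.2% of all genes tested lay above and 10.6% below. In 6 of the 8, Gins2 among them, the knockout was higher in each of the 3 same-numbered pairs, where 18.9% of all genes tested were. Without knockout 2 the median of these 8 genes was 0.15, and without control 2 and knockout 2 together, an alternative chosen after the data were seen, it was 0.21.

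Mcm2, a subunit of the replicative helicase (ENSMUSG00000002870, chromosome 6, 88883474 to 88898780), measured 0.594, 0.485 and 0.606 FPKM in controls 1 to 3 and 0.904, 0.975 and 0.816 in knockouts 1 to 3. These rest on 62, 54 and 70 reads among controls and 94, 136 and 97 among knockouts. The means, 0.561 ± 0.0667 and 0.898 ± 0.0799, had a ratio of 1.60. The log2 fold change was 0.28 (SE 0.10, unadjusted p = 0.0229, limma adjusted p = 0.279, ranging from 0.186 to 0.624 under other settings). This was the smallest adjusted p of the 31 genes tested. Mcm2 was the 1 gene of the 36 that was lowest in control 2.

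Mcm5, another subunit of the same ring (ENSMUSG00000005410, chromosome 8, 75109569 to 75128439), measured 1.35, 1.49 and 1.21 FPKM among controls and 1.76, 2.82 and 1.79 among knockouts. Knockout 2 was far above the other livers, and the remaining knockouts still exceeded each control. The ratio of means was 1.58 and the log2 fold change 0.40 (SE 0.15, unadjusted p = 0.0315, limma adjusted p = 0.313). Mcm3 measured 1.85, 1.90 and 1.48 FPKM among controls and 2.03, 2.39 and 1.98 among knockouts (ratio 1.23, log2 fold change 0.20, SE 0.11, limma adjusted p = 0.469).

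For the remaining helicase subunits the groups overlapped. Mcm6 measured 2.55 ± 0.606 against 3.38 ± 0.743 FPKM, Mcm4 1.27 ± 0.399 against 1.64 ± 0.554 and Mcm7 3.39 ± 0.280 against 3.76 ± 0.188. Mcm6 and Mcm7 were higher in the knockout of every same-numbered pair. Cdt1, which brings the helicase to origins with Cdc6, measured 0.858 ± 0.0849 against 0.999 ± 0.184. Gins2, a subunit of the complex that activates the helicase, had the highest ratio of means of the 36 genes, 2.04. It measured 0.195, 0.625 and 0.264 FPKM among controls and 0.457, 1.35 and 0.400 among knockouts, with library 2 the highest of each group and 12 to 111 reads per liver. Its log2 fold change was 0.32 (SE 0.23, limma adjusted p = 0.581), and 0.13 was the SE with the replicate block (adjusted p = 0.316).

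**Figure D2:**
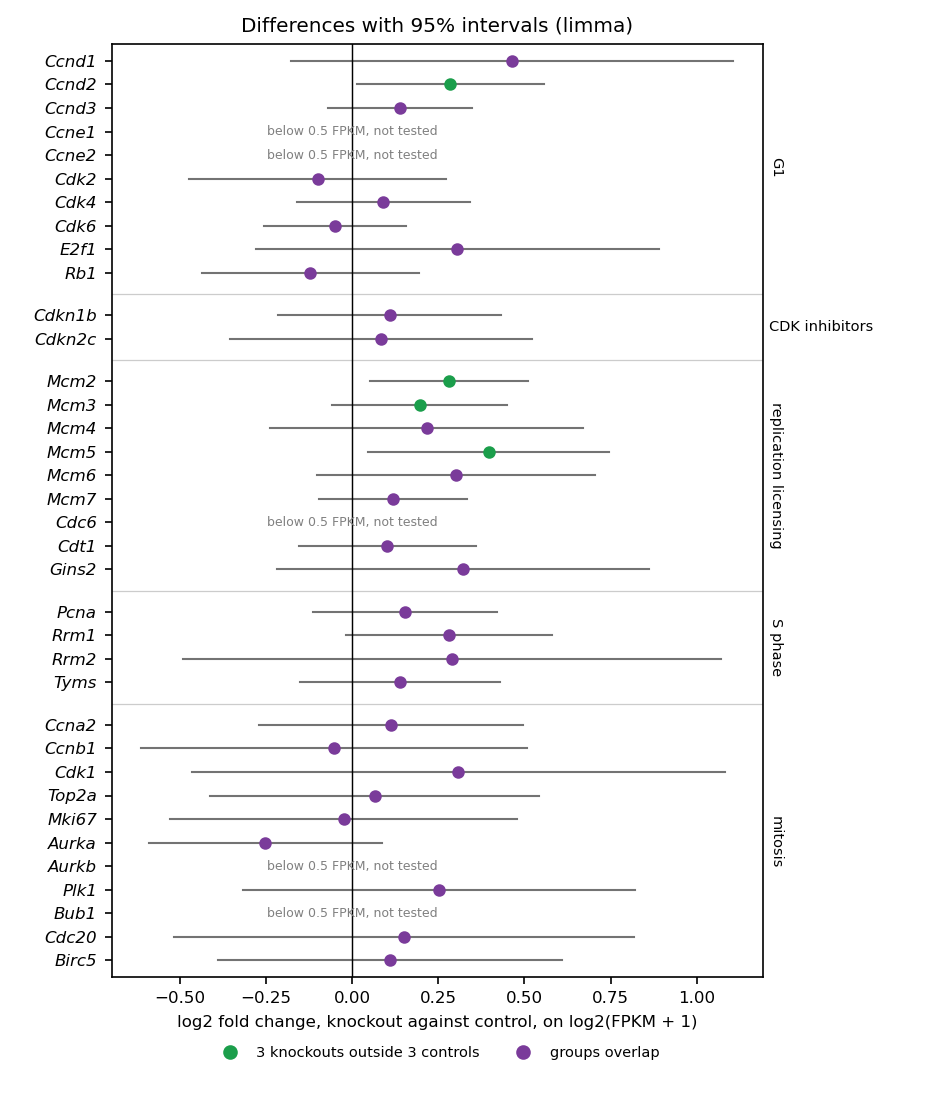
Log2 fold change of each tested gene, knockout against control on log2(FPKM + 1), with 95% limma intervals. Green points mark the 4 of 31 genes (Ccnd2, Mcm2, Mcm3 and Mcm5) in which every knockout was above every control, and purple points those with overlapping groups. In 0 of the 31 was every knockout below every control. Over all genes tested, 9.2% lay above and 10.6% below. All 8 tested licensing genes lie right of 0, while the mitotic genes lie on both sides of it.

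The S phase genes had the same direction of means with overlapping groups. All 4 had higher means, with a median log2 fold change of 0.22. Pcna measured 13.3, 13.3 and 12.4 FPKM among controls and 14.8, 16.5 and 12.6 among knockouts. Knockout 3 lay among the controls, and the log2 fold change was 0.15 (95% interval from -0.12 to 0.42, and limma adjusted p = 0.599). Rrm1, the large subunit of ribonucleotide reductase, measured 0.799, 1.20 and 0.770 FPKM against 1.26, 1.56 and 1.17, and knockout 3 was the single knockout below the highest control (log2 fold change 0.28, limma adjusted p = 0.387).

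Rrm2, the small subunit whose level limits the supply of deoxynucleotides, was highest in library 2 of each group. It measured 2.21, 3.67 and 1.63 FPKM in controls 1 to 3 and 2.17, 5.72 and 2.39 in knockouts 1 to 3. Without knockout 2 its log2 fold change of 0.29 became -0.055. Tyms, thymidylate synthase, measured 1.61 ± 0.238 against 1.88 ± 0.318. The median of the phase was 0.064 without knockout 2 and 0.11 without control 3.

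The mitotic genes did not share a direction. Of the 11, 6 had higher and 5 lower means, and the median log2 fold change of the 9 tested was 0.11. Over the same 9 genes it was -0.030 without knockout 2, -0.024 without control 3, 0.016 without control 1 and 0.26 without control 2. Mki67, which encodes the proliferation marker Ki-67 (ENSMUSG00000031004, chromosome 7, 135689784 to 135716361), measured 0.371, 1.03 and 0.299 FPKM in controls 1 to 3 and 0.439, 0.848 and 0.291 in knockouts 1 to 3. Control 2 and knockout 2 stood above the other 4 livers, and the groups overlapped throughout. The log2 fold change was -0.025 (95% interval from -0.53 to 0.48, and limma adjusted p = 0.974), and its sign changed with the liver left out (-0.17 without knockout 2 and 0.18 without control 2).

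Top2a, the topoisomerase that untangles chromosomes, was also highest in control 2 and knockout 2, at 0.451, 1.14 and 0.467 FPKM among controls and 0.579, 1.15 and 0.539 among knockouts (log2 fold change 0.07, limma adjusted p = 0.920). Cdk1, the kinase of mitotic entry, measured 0.473, 2.15 and 0.573 against 1.41, 2.14 and 0.830. Controls 1 and 3 were the lowest of the 6 livers, and control 2 and knockout 2 the highest (log2 fold change 0.31 with a 95% interval from -0.47 to 1.08, and limma adjusted p = 0.731). Its partner cyclin, Ccnb1, measured 0.316, 1.23 and 0.185 against 0.460, 0.568 and 0.361, with control 2 the highest and a ratio of means of 0.802.

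The remaining mitotic genes had overlapping groups as well. Plk1, a kinase of the spindle and of mitotic entry, measured 0.488 ± 0.327 against 0.793 ± 0.535 FPKM, and Birc5, survivin, 0.652 ± 0.358 against 0.784 ± 0.379. Plk1 passed the filter of 0.5 FPKM only through the knockouts, and Ccnb1 only through the controls (means of 0.577 and 0.463). Ccna2, the cyclin of S and G2 phases, measured 0.625 ± 0.336 against 0.733 ± 0.0978, and Cdc20, an activator of the anaphase-promoting complex, 1.83 ± 1.05 against 2.07 ± 0.709. The spindle checkpoint kinase Bub1 measured 0.245 ± 0.165 against 0.161 ± 0.0685. The Aurora kinases had lower means in the knockouts. Aurka, which acts at spindle poles, measured 2.0, 2.24 and 1.64 FPKM among controls and 1.90, 1.46 and 1.13 among knockouts, lower in each same-numbered pair, as 21.2% of all genes tested were (ratio 0.763, log2 fold change -0.25, SE 0.14, limma adjusted p = 0.482). Aurkb, which acts at centromeres, was lower in each pair too (0.475 and 0.318, 0.911 and 0.779, 0.163 and 0.139).

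The labels number the libraries without saying what a number stands for, and livers numbered 2 were often the highest in these genes. In 18 of the 31 tested genes, control 2 was the highest control and knockout 2 the highest knockout, where 13.4% of all genes tested had that order; this count was made after the values were seen. It held for 7 of the 9 tested mitotic genes, 4 of 4 S phase genes, 5 of 8 licensing genes and 1 of 8 G1 genes. For the 11 mitotic genes, control 2 was a median of 2.49 times the mean of the other controls and knockout 2 a median of 1.91 times that of the other knockouts. Over all genes tested these medians were 0.994 and 0.990. For the licensing genes the medians were 1.16 in control 2 and 1.33 in knockout 2.

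The order of the 6 livers can be read phase by phase. For licensing, the median difference from the control mean was 0.018, 0.084 and -0.093 in controls 1 to 3. It was 0.19, 0.42 and 0.096 in knockouts 1 to 3. Over the tested genes each knockout was above each control, but knockout 3 only narrowly above control 2 (0.096 against 0.084). The separation depends on the filter. With Cdc6, the untested licensing gene, counted too, the median of knockout 3 would fall below that of control 2. The SD of these medians between livers of a group was 0.13. For mitosis the median difference was -0.19, 0.37 and -0.27 among controls and -0.024, 0.35 and -0.11 among knockouts, so control 2 and knockout 2 lay together. The G1 medians, from -0.050 to 0.18, overlapped between groups, as did those of S phase, from -0.13 to 0.37. Whether the phases differ from each other was not tested.

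**Figure D3:**
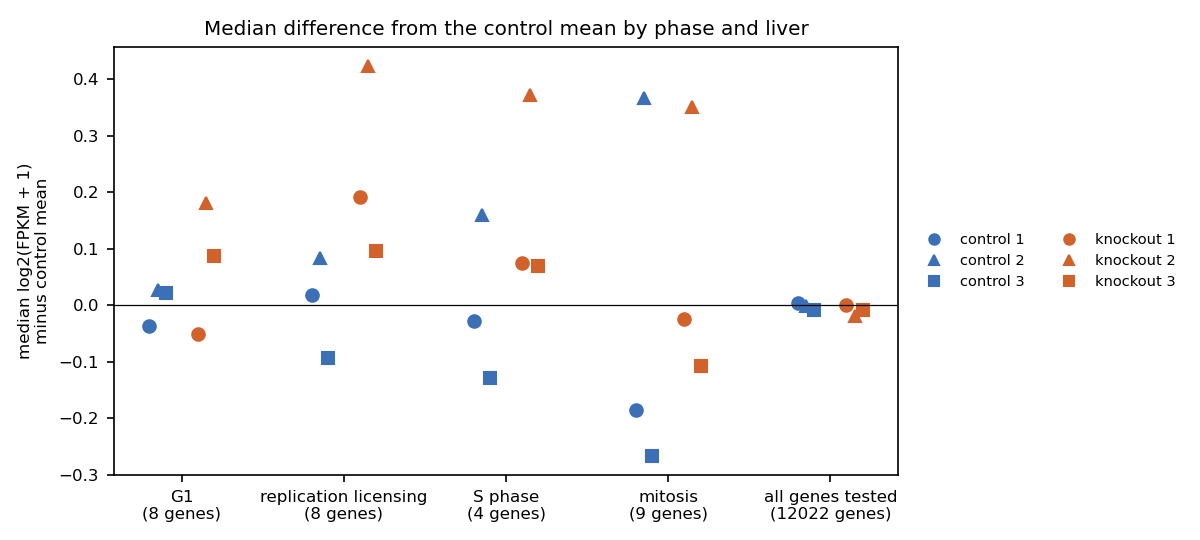
Median over the tested genes of each phase of log2(FPKM + 1) minus the control mean, per liver, with all genes tested at the right. In licensing, with the untested Cdc6 left out, the 3 knockouts (orange) lie at 0.096 to 0.42. The highest control is at 0.084. In mitosis the triangles of control 2 (0.37) and knockout 2 (0.35) lie together above the other 4 livers.

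Markers of the liver's cell types were summed per liver. Of 9 marker lists, 1, the hepatocyte list, had its highest sum in both control 2 (57212 FPKM) and knockout 2 (46594). Knockout 1 was close at 46014 FPKM, and Alb, most of each sum, was higher in knockout 1 than in knockout 2. Of the 10 hepatocyte markers, 1 was highest in library 2 of both groups (10%, where 13.4% of all genes tested were). The hepatocyte sums were lower in every knockout than in any control. Erythroid cells divide in the liver when blood forms there. Their 13 markers summed to 759 to 930 FPKM in controls and 375 to 764 in knockouts, with control 2 and knockout 2 the lowest of their groups. The globins Hbb-bs, Hba-a1 and Hba-a2, most of each sum, had that order. The globin Hbb-bt was lowest in control 1 among controls (50.2 FPKM) and in knockout 2 among knockouts (35.3). Alas2 and Klf1 were instead highest in control 2 among controls (73.9 and 1.92 FPKM), and lowest in knockout 2 among knockouts (49.4 and 0.782). Hemgn, Ermap and Rhag were at 0 in all 6 livers. The 12 macrophage markers summed to 284 to 354 FPKM in controls and 270 to 372 in knockouts, and were lowest in knockout 2. Sums of 10 stellate cell and fibroblast markers were 40.7 to 81.9 and 59.8 to 102, and those of 8 bile duct markers 15.9 to 19.2 and 26.5 to 36.2, the latter without overlap. For immune cells the sums were 6.32 to 18.7 and 11.1 to 37.6 (neutrophils), 4.86 to 7.74 and 5.69 to 6.54 (T and NK cells) and 20.3 to 24.4 and 15.6 to 20.5 (B and plasma cells), and for endothelial cells 51.5 to 65.6 and 54.3 to 67.5. Bile duct markers, 5 of 5 tested with higher means, thus separated the groups, as the licensing medians did narrowly and only without Cdc6. Their part, and that of the other markers, in the values above was not tested.

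Promoters of the licensing and mitotic genes are shown because the order of the livers differed between these phases. The licensing medians separated the groups narrowly and only without Cdc6, while the mitotic medians were highest in livers numbered 2. RefSeq promoters (GRCm38.p6) were found for 28 of the 36 genes. In the 250 bases before each start site, 3 motifs were searched on both strands: the E2F site (any of the letters TTCCCGC, the letters TTCGCGC, the letters TTGGCGC and the letters TTGCCGC), the CHR element of mitotic genes (TTTGAA) and the CCAAT box (CCAAT). An E2F site can overlap a CCAAT box by shared letters. The lines below give the licensing genes with the smallest p (Mcm2 and Mcm5), then Mcm6, and the mitotic genes Mki67 and Top2a. Mcm6 was not next by p: Mcm3 had a smaller p and 0 E2F matches, where Mcm6 had 4. Mki67 and Top2a are among the 4 of 9 mitotic promoters with a CHR element. The lines are examples and do not stand for their phases. They are written 5′ to 3′ on the gene's strand, with motif matches in capitals.
Mcm2, chr6:88898781-88899030, strand minus: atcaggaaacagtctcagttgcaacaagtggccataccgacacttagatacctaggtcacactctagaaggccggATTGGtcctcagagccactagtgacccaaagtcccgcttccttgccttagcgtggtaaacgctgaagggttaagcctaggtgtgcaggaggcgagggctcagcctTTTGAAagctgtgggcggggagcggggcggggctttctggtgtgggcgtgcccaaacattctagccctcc
Mcm5, chr8:75109259-75109508, strand plus: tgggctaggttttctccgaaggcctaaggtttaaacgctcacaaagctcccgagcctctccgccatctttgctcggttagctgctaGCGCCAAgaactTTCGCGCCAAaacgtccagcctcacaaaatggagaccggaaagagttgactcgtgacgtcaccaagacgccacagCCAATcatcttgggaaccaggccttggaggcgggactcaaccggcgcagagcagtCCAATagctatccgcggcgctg
Mcm6, chr1:128359706-128359955, strand minus: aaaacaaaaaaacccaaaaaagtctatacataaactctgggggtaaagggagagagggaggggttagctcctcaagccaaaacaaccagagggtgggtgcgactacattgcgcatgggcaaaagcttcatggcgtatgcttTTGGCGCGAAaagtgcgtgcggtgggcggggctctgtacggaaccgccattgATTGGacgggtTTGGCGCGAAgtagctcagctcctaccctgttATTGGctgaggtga
Mki67, chr7:135716380-135716629, strand minus: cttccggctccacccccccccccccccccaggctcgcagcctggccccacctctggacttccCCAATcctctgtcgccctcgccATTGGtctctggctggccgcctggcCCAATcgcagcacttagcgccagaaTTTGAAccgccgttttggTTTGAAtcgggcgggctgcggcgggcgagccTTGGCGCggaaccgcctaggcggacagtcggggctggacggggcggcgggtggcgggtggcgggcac
Top2a, chr11:99024190-99024439, strand minus: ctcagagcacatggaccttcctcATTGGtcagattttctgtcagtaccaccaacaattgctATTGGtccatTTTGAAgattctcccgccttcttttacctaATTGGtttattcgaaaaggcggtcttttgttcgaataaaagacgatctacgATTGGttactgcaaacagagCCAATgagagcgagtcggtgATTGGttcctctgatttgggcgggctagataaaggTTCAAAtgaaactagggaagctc

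The motifs were counted by phase. E2F sites were in 5 of 8 licensing promoters (alternative starts counted separately) and 3 of 9 mitotic ones, against 7.89% of 32851 mouse promoters. CHR elements were in 1 of 8 licensing promoters, that of Mcm2, and in 4 of 9 mitotic ones (Cdk1, Top2a, Mki67 and Cdc20), against 16.0% of all. CCAAT boxes were in 6 of 8 and 8 of 9, against 33.8%. Mcm5 had 3 E2F matches and Mcm6 had 4, counted on both strands. Matches on opposite strands that share letters were counted separately, as in TTCGCGCCAA of Mcm5 and TTGGCGCGAA of Mcm6. These matches are therefore not all separate sites, and the capitals show 2 E2F stretches in each of the promoters of Mcm5 and Mcm6. Top2a had 6 CCAAT boxes and 2 CHR elements, and Mki67 had 3 CCAAT boxes, 2 CHR elements and 1 E2F site. A match is a string of letters and was not tested for binding.

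Outside the 36, some genes of the same pathways had larger log2 fold changes than any of the 31 genes tested (at most 0.46, Ccnd1). Mcm10 (-1.48), E2f8 (-1.17) and Myc (-1.08) had lower means in the knockouts. Cdkn1a (0.54) and Wee1 (0.51) had higher means. Of 47 other replication genes, 35 were tested, 25 with higher and 10 with lower means, a median log2 fold change of 0.08 and 0 past the threshold. Mcm10, a replication initiation factor that is not part of the helicase ring (ENSMUSG00000026669, chromosome 2, 4989714 to 5012791), measured 16.7, 11.1 and 15.1 FPKM among controls and 6.81, 3.75 and 3.32 among knockouts. Every knockout lay below every control, at 436 to 1933 reads per liver. The control mean was 3.09 times that of the knockouts (log2 fold change -1.48, SE 0.25, limma adjusted p = 0.107, ranging from 0.0578 to 0.327 under other settings). Its difference had the opposite sign to those of the helicase subunits. Pold3, a polymerase delta subunit, measured 1.40 ± 0.0737 against 2.03 ± 0.291, and Rfc4, part of the clamp loader, 2.39 ± 0.303 against 3.24 ± 0.228 (limma adjusted p = 0.247 and 0.254).

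Among 26 other G1 regulators, 18 were tested, 10 with higher and 8 with lower means, a median of 0.0053 and 0 past the threshold. E2f8, an atypical E2F that represses E2F targets and promotes hepatocyte polyploidy (ENSMUSG00000046179, chromosome 7, 48866429 to 48881596), measured 5.63, 2.84 and 4.64 FPKM among controls and 1.52, 1.23 and 1.26 among knockouts. The groups did not overlap (control mean 3.27 times the knockout mean, log2 fold change -1.17, SE 0.20, limma adjusted p = 0.107, ranging from 0.0785 to 0.315 under other settings). A transcript on the opposite strand, Gm2788, overlaps E2f8 and averaged 5.66 FPKM, and the sources used here do not say whether reads were counted by strand. Cdkn1a, which encodes the CDK inhibitor p21, measured 15.6, 22.8 and 22.9 against 29.4, 25.3 and 35.2, with every knockout above every control (ratio 1.47, log2 fold change 0.54, limma adjusted p = 0.279). Myc measured 4.77 ± 2.02 against 1.64 ± 0.486 (limma adjusted p = 0.195).

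Of 44 other mitotic genes, 24 were tested, 12 with higher and 12 with lower means, a median of 0.00054 and 0 past the threshold. Control 2 and knockout 2 were the highest of their groups in 13 of these 24. Wee1, the kinase that holds Cdk1 inactive, measured 0.617 ± 0.110 against 1.33 ± 0.538 FPKM, and Nek2, a centrosome kinase, 0.782 ± 0.300 against 1.41 ± 0.319. Ect2, needed for cytokinesis, measured 1.08 ± 0.182 against 0.659 ± 0.162 (limma adjusted p = 0.269, 0.293 and 0.305 for the 3 genes).

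**Figure D4:**
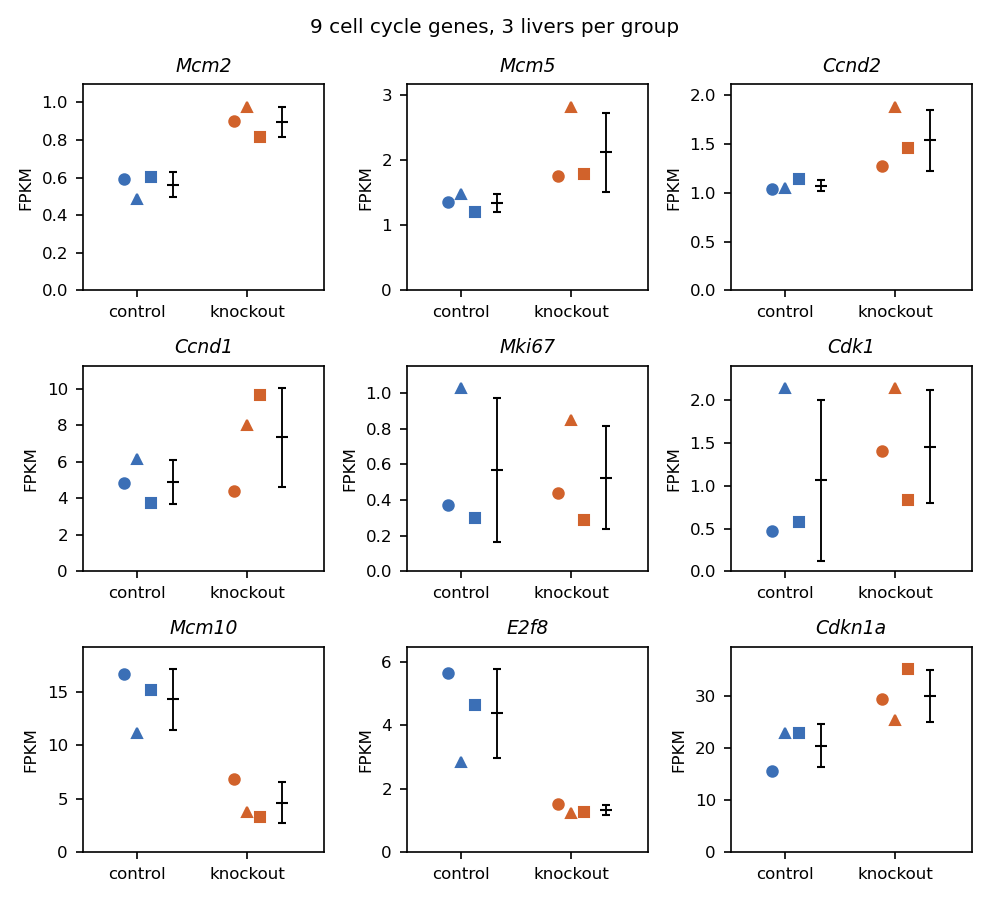
FPKM in each liver for 9 genes, with linear axes from 0 and black bars for mean ± SD (n = 3), circles, triangles and squares being libraries 1, 2 and 3. Mcm2, Mcm5, Ccnd2 and Cdkn1a are higher in every knockout than in any control, Mcm10 and E2f8 are lower in every knockout, and Mki67 and Cdk1 are highest in control 2 and knockout 2.

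Overlap with neighbours limits some values. Of the 36 genes, 8 overlap a gene of at least 0.5 FPKM on the opposite strand. Among the G1 genes these are Ccnd1 (Oraov1), Ccnd3 (Bysl), Ccne2 (Ints8), Cdk4 (Tspan31) and Rb1 (Rcbtb2 and Lpar6). The others are the licensing gene Mcm7 (Cops6 and Ap4m1), Ccna2 (Exosc9) and Cdc20 (Elovl1).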

How the data were processed

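Polyadenylated RNA from Trizol extracts was made into NEBNext Ultra libraries, per the labels' protocols. HISAT2 2.0.5 and featureCounts 1.5.0-p3 are listed with GRCm38, without settings, per the submitters' processing notes. The authors deposited FPKM for 54532 genes. Knockout columns carry the group's name; columns named NC were taken as the controls by elimination, and 0 columns were left over.

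Multiplying FPKM by gene length recovered whole reads (tolerance 0.1 read, 100% of values up to 1000 reads), which gave 15612924 to 17511961 reads per library. The steps followed median-of-ratios factors of 0.911 to 1.22, so scaling between libraries is part of the deposited FPKM. At these depths 3 reads in a gene of 1 kilobase are 0.150 to 0.201 FPKM.

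The 12022 genes averaging 0.5 FPKM or more were fitted on log2(FPKM + 1), knockout against control, with limma 3.58.1 (eBayes with trend, two-sided) in R 4.3.3, with Benjamini-Hochberg adjustment over all of them and a threshold of 0.05. The fit was tested on simulated data. The genes, lists and tests were chosen with earlier results of these data known. Every one of the 36 genes is named; per-liver values are given for those at an unadjusted p under 0.05 or with no overlap, for Ccnd1, Cdkn1b, Pcna, Mcm2, Mki67, Top2a and Cdk1, and, chosen after their values were seen, for E2f1, Gins2, Rrm1, Rrm2, Ccnb1, Aurka and Aurkb. The 3 smallest p of each other pathway list are named. The p-values reflect only how these 6 livers vary. Deviations from the group means correlated at 0.31, 0.16 and 0.10 for same-numbered libraries and at -0.25 to 0.11 for the others; the evidence for pairs comes from the values alone. All 36 genes had the GENCODE M21 coordinates. The fit was repeated under 18 alternatives, 4 of them chosen after the data were seen. Livers were left out with the tested genes kept, and also, chosen later, with the filter applied again.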

Additional observations from a re-analysis of the deposited data

How the results depend on the processing

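Under all 18 alternatives 0 of the cell cycle genes tested passed, also with the replicate number as a block (0 passed, smallest adjusted p = 0.218), which changed no call; the smallest adjusted p over the alternatives lay between 0.172 (without knockout 1) and 0.502 (without control 2 and knockout 2 together). The G1 median was 0.24 with scaling by total reads, where the median of all genes moved by 0.11, and the licensing median was 0.41 by limma voom, which adds no FPKM pseudocount. Over the refits that each left out 1 liver, on the same genes, the medians ranged from 0.057 to 0.15 (G1), 0.15 to 0.35 (licensing), 0.064 to 0.29 (S phase) and -0.030 to 0.26 (mitosis). With the filter applied again to the livers left in, tried as well, 0 passed, the licensing median without knockout 2 was 0.17 over 7 genes and the mitotic median without control 2 was 0.28 over 7. Over all genes, 3 passed; 1 did with a pseudocount of 0.1, 0 without a filter, 0 with the block, 16 by voom, 1 without control 2 and knockout 2, and 0 to 58 with 1 liver left out (58 without control 3, 29 without knockout 2). Some genes changed sign. Ccnb1 was 0.042 with a pseudocount of 0.1, with or without the replicate block, and 0.15 by voom. Cdk6 was 0.030 and Mki67 0.029 with total reads, Mki67 was 0.028 by voom, and without control 2 and knockout 2 Cdk4 was -0.0062, Ccnb1 0.17 and Mki67 0.030. With 1 liver left out, values ranged from -0.17 to 0.18 (Mki67), -0.23 to 0.23 (Ccnb1), -0.025 to 0.20 (Cdkn1b), -0.015 to 0.28 (Cdkn2c), -0.088 to 0.25 (Top2a), -0.27 to 0.019 (Cdk2), -0.034 to 0.26 (Ccna2), -0.024 to 0.44 (Cdc20), -0.055 to 0.52 (Rrm2) and -0.030 to 0.28 (Birc5); the cause was not tested. The planned edgeR and DESeq2 fits were not run, since the file holds FPKM. With 3 livers per group and 3 to 46 reads, Ccne1, Ccne2, Cdc6, Aurkb and Bub1 were limited by depth.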
